A study of Drosophila melanogaster with 5 samples.

Results

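The genes described here encode the subunits of the proteasome, the protease that degrades ubiquitin-tagged proteins in eukaryotic cells. They were chosen by name among the annotated coding sequences (CDSs) of FlyBase Release 5: names that start with Prosalpha, Prosbeta, Rpt and a digit, or Rpn and a digit (Pros and a digit was allowed too and matched none). The rule found 47 genes, of 13842 genes with values, and each gene was represented by its longest CDS. Of these, 14 encode the core particle (7 alpha and 7 beta subunits) and 18 encode the regulatory particle (6 Rpt and 12 Rpn subunits). The other 15 are paralogues that carry an R or a T after the name of a subunit, and are called testis-type paralogues below, since several such genes are known for expression in the male germline of Drosophila. Of the paralogues, 10 resemble a core gene and 5 resemble a regulatory gene.

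The core particle is a barrel of stacked rings: the alpha rings form the gate at each end, and the beta rings in the middle hold the peptidase sites. The regulatory particle sits on the end of the barrel. Its Rpt subunits form a ring of ATPases that unfold the substrate and thread it into the core, and its Rpn subunits recognise ubiquitin, remove it, and hold the complex together. Each core subunit occurs in a pair of copies per barrel and each Rpt subunit in a single copy per regulatory particle, so the mRNAs of a particle make parts that are needed in fixed proportions.

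All samples came from S2 cells, an embryonic Drosophila cell line grown in standard medium, lysed in the presence of cycloheximide, which arrests ribosomes on the mRNA. Cytoplasmic lysates were separated on sucrose gradients, and the fragments that ribosomes protect (footprints) were read in 4 libraries: an extensive and an initial library of small polysomes, which hold 2 to 6 ribosomes, a library of large polysomes, with at least 7, and one of all polysomes, depleted of rRNA. Poly(A) mRNA of the total cytoplasm was fragmented and sequenced alongside. The extensive library is, by the study's methods, a biological replicate of small polysomes, and each other footprint fraction has 1 library. The mRNA values appear to pool 2 libraries. The paper describes small and large polysomes as an initial experiment, and the extensive and all polysome libraries as further experiments. Comparisons of the extensive or all polysome library with another footprint library therefore cross experiments. The labels give the 5 samples as separate groups, so no test across replicates was made, and the intervals given are 95% exact intervals that cover counting error only.

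Read density is given as RPKM, the number of reads on a CDS scaled to its length and to the size of the library. The reads behind it could be counted back exactly: CDSs held 5834356 reads in the extensive small, 2841536 in the initial small, 1890481 in the large and 2332791 in the all polysome library, against 3605550 in mRNA. Proteasome genes took 0.594 to 0.984% of these reads in each library. The 32 core and regulatory genes had between 78 and 2872 footprints per library, with Rpt5 the lowest in all 4 footprint libraries. Of 10 markers of blood cells, the lineage that S2 cells resemble, 9 were listed and 8 had at least 1 RPKM in mRNA. The mRNA median of other genes was 1.93 RPKM. Among the 8 markers, srp, Pxn and ush lay well above that median, but vkg (1.73 RPKM) and Cg25C (1.07 RPKM) below it. Hml, a marker of mature blood cells, had a single mRNA read.

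Both particles were among the abundant mRNAs of S2 cells, and in small polysomes the core genes had a far higher footprint density than the regulatory genes. The least abundant proteasome mRNA of both particles, Rpn6, lay above 88.1% of the 8439 other genes with mRNA reads. The median density of core genes was 4.05 times that of regulatory genes in extensive small polysomes (236 against 58.2 RPKM) and 4.38 times in initial small polysomes (221 against 50.4 RPKM). In large polysomes the ratio was 1.35 (219 against 163 RPKM), in all polysomes 1.89 (181 against 96.0 RPKM) and in mRNA 1.70 (251 against 148 RPKM). Genes outside the proteasome differed in the same direction. Those within the core range of CDS length and mRNA density had medians of 335 RPKM in extensive and 247 RPKM in initial small polysomes (68 genes). Those within the regulatory ranges had medians of 95.6 and 74.2 RPKM (380 genes). In both small polysome libraries each of the 14 core genes lay above all 18 regulatory genes, although the nearest pair in the initial library, Prosbeta2 at 95.5 RPKM and Rpt1 at 94.2 RPKM, differed by less than counting error. The groups overlapped elsewhere: 13 core genes lay below the highest regulatory gene in large polysomes, 7 in all polysomes and 11 in mRNA.

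**Figure D1:**
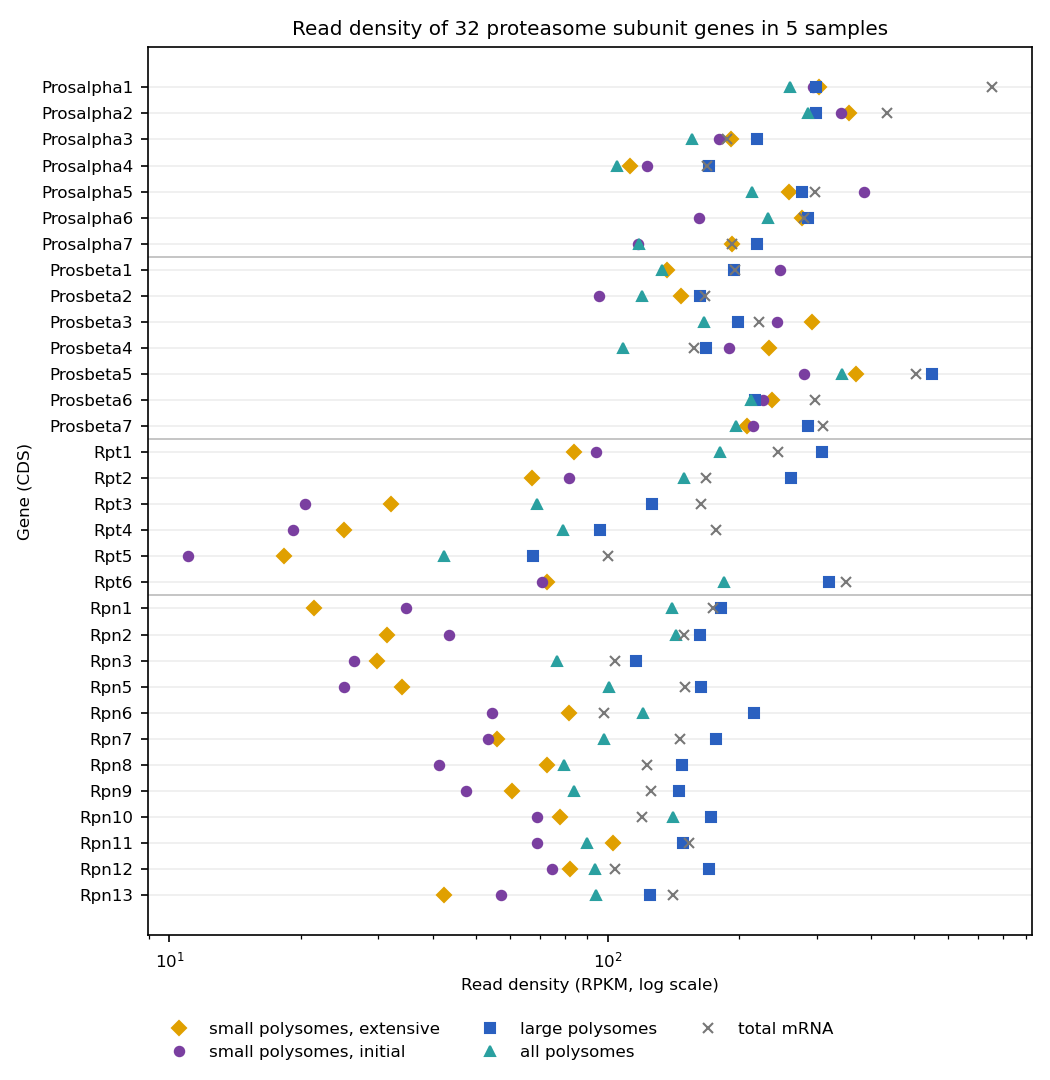
Read density (RPKM, log axis) of the 14 core and 18 regulatory particle genes, 1 row per gene, in the 4 footprint libraries and in total mRNA. Each point is 1 sample, and grey lines divide alpha, beta, Rpt and Rpn genes. The small polysome points (diamonds and circles) of the regulatory genes all lie at or below 103 RPKM, whereas the lowest small polysome value of a core gene is 95.5 RPKM in the initial and 113 RPKM in the extensive library.

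Among the alpha subunits, which build the gated outer rings, Prosalpha1 was listed with by far the most mRNA and the fewest footprints per mRNA. It had 304 RPKM in extensive small, 294 RPKM in initial small, 299 RPKM in large and 261 RPKM in all polysomes, against 754 RPKM in mRNA. Its translational efficiency (TE, footprint RPKM over mRNA RPKM) in all polysomes was 0.346 (0.317 to 0.378), while the other 13 core genes lay between 0.614 and 0.835. The mRNA density and TE of Prosalpha1 are uncertain, because a near-identical gene, CG30382 (Prosalpha1R), was listed with the same 2526 mRNA reads. CG30382 also had nearly the same footprint densities, with 312 RPKM in extensive small, 289.5 RPKM in initial small, 308 RPKM in large and 263 RPKM in all polysomes, with read counts that differed between both genes in each footprint library. Whether mRNA reads or footprints were counted at both genes was not tested.

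Prosalpha4 had the least mRNA of the alpha genes, with 113 RPKM in extensive small, 123 RPKM in initial small, 170.2 RPKM in large and 105 RPKM in all polysomes, against 169 RPKM in mRNA. Prosalpha3 had 191 RPKM in extensive small, 180.1 RPKM in initial small, 219.9 RPKM in large and 156 RPKM in all polysomes, against 187 RPKM in mRNA. With a TE of 0.835 (0.736 to 0.946) it stood highest of the core genes in all polysomes, although the interval holds the 0.828 of Prosalpha6.

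Of the alpha genes, Prosalpha5, Prosalpha6 and Prosalpha7 differed most between both small polysome libraries. Prosalpha5 had 259 RPKM in extensive small, 386 RPKM in initial small, 277 RPKM in large and 214 RPKM in all polysomes, against 298 RPKM in mRNA. Prosalpha6 had 278 RPKM in extensive small but 162 RPKM in initial small, with 287 RPKM in large and 232 RPKM in all polysomes, against 280.4 RPKM in mRNA. Prosalpha7 likewise had 192 RPKM in extensive small and 118 RPKM in initial small, with 219 RPKM in large and 118 RPKM in all polysomes, against 192 RPKM in mRNA. Prosalpha2, also a subunit of this ring, was more even across libraries, at 355 RPKM in extensive small, 341 RPKM in initial small, 299 RPKM in large and 287 RPKM in all polysomes, against 434 RPKM in mRNA.

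The beta subunits hold the active sites: Prosbeta1 carries the caspase-like, Prosbeta2 the trypsin-like and Prosbeta5 the chymotrypsin-like activity. Their densities were not equal, since Prosbeta5 stood above both other catalytic subunits in each of the 5 samples. Prosbeta5 had 369 RPKM in extensive small, 280.4 RPKM in initial small, 551 RPKM in large and 343 RPKM in all polysomes, against 506 RPKM in mRNA. Prosbeta1 had 137 RPKM in extensive small, 247 RPKM in initial small, 195 RPKM in large and 133 RPKM in all polysomes, against 195 RPKM in mRNA. Prosbeta2 had 147 RPKM in extensive small, 95.5 RPKM in initial small, 163 RPKM in large and 119.8 RPKM in all polysomes, against 167 RPKM in mRNA. In all polysomes the TE of the 3 catalytic genes was close, at 0.678 (0.626 to 0.733) for Prosbeta5, 0.683 (0.591 to 0.787) for Prosbeta1 and 0.719 (0.626 to 0.825) for Prosbeta2, with overlapping intervals.

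The structural beta subunits, which have no peptidase site, included the shortest CDSs of the 32 genes. Prosbeta4, of 606 nt, had 233 RPKM in extensive small, 189 RPKM in initial small, 168 RPKM in large and 109 RPKM in all polysomes, against 158 RPKM in mRNA. Prosbeta3, of 618 nt, had 293 RPKM in extensive small, 244 RPKM in initial small, 198 RPKM in large and 166 RPKM in all polysomes, against 221 RPKM in mRNA. In both small polysome libraries their values were above those in large polysomes, for Prosbeta4 in the initial library by less than counting error. Prosbeta7, of 807 nt, had 208 RPKM in extensive small, 215 RPKM in initial small, 287 RPKM in large and 196 RPKM in all polysomes, against 311 RPKM in mRNA. Prosbeta6 had 238 RPKM in extensive small, 227 RPKM in initial small, 217 RPKM in large and 212 RPKM in all polysomes, against 298 RPKM in mRNA. Over the 7 beta genes TE in all polysomes spanned 0.632 to 0.749, the narrowest span of the 4 classes.

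The 6 ATPases of the Rpt ring fell into 3 with more and 3 with fewer footprints, a division made after the values were seen. Rpt1, Rpt2 and Rpt6 lay between 149.9 and 185 RPKM in all polysomes, and Rpt3, Rpt4 and Rpt5 between 42.4 and 79.3 RPKM. The same 3 genes stood above the other 3 in each of the 4 footprint libraries, with 67.2 to 84.0 RPKM against 18.2 to 32.1 RPKM in extensive small, 70.9 to 94.2 RPKM against 11.0 to 20.4 RPKM in initial small, and 262 to 320.3 RPKM against 67.5 to 126 RPKM in large polysomes. In mRNA both sets overlapped, at 167 to 350.0 RPKM against 100.4 to 177 RPKM.

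Rpt6 had the most abundant mRNA of the ring, with 72.7 RPKM in extensive small, 70.9 RPKM in initial small, 320.3 RPKM in large and 185 RPKM in all polysomes, against 350.0 RPKM in mRNA. Rpt1 had 84.0 RPKM in extensive small, 94.2 RPKM in initial small, 308 RPKM in large and 181 RPKM in all polysomes, against 245 RPKM in mRNA. Rpt2 had 67.2 RPKM in extensive small, 81.6 RPKM in initial small, 262 RPKM in large and 149.9 RPKM in all polysomes, against 167 RPKM in mRNA. Rpt2 had the highest TE of the ring in all polysomes, 0.895 (0.809 to 0.989), above the 0.739 (0.676 to 0.808) of Rpt1.

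Rpt5 was the lowest ATPase in all 5 samples, with 18.2 RPKM in extensive small, 11.0 RPKM in initial small, 67.5 RPKM in large and 42.4 RPKM in all polysomes, against 100.4 RPKM in mRNA. Rpt3 had 32.1 RPKM in extensive small, 20.4 RPKM in initial small, 126 RPKM in large and 69.2 RPKM in all polysomes, against 164 RPKM in mRNA. Rpt4 had 25.1 RPKM in extensive small, 19.2 RPKM in initial small, 96.4 RPKM in large and 79.3 RPKM in all polysomes, against 177 RPKM in mRNA. Rpt4 and Rpt2 were alike in mRNA within counting error, but Rpt4 had fewer footprints in each footprint library. In all polysomes TE was 0.422 (0.367 to 0.483) for Rpt3, 0.422 (0.355 to 0.501) for Rpt5 and 0.449 (0.393 to 0.512) for Rpt4, and these intervals overlap each other while all lie below that of Rpt2.

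The Rpn subunits were more alike in mRNA, spanning 1.78-fold from 98.2 RPKM for Rpn6 to 174 RPKM for Rpn1, and 1.87-fold in all polysomes. The Rpt genes spanned 3.49-fold in mRNA and 4.35-fold in all polysomes. Rpn6, a lid subunit that clamps the regulatory particle to the core, combined the least mRNA of the 32 genes with the highest footprint density of the Rpn class in large polysomes. It had 81.9 RPKM in extensive small, 54.6 RPKM in initial small, 216 RPKM in large and 120.4 RPKM in all polysomes, against 98.2 RPKM in mRNA, and its TE in all polysomes, 1.23 (1.09 to 1.38), was the highest of the 32, although the interval overlaps that of Rpn10.

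Rpn10 and Rpn13 are ubiquitin receptors of the complex. Rpn10 had 77.8 RPKM in extensive small, 68.9 RPKM in initial small, 172 RPKM in large and 141 RPKM in all polysomes, against 119.7 RPKM in mRNA. With a TE of 1.18 (1.05 to 1.33) in all polysomes it was, beside Rpn6, the only other gene of the 32 above the median of other genes. Rpn13 had 42.3 RPKM in extensive small, 57.2 RPKM in initial small, 125 RPKM in large and 93.9 RPKM in all polysomes, against 141 RPKM in mRNA, and its TE in all polysomes was 0.664 (0.587 to 0.751).

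Rpn11 is the metalloprotease that removes the ubiquitin chain, and Rpn8 is its partner without catalytic activity. Rpn11 had 103 RPKM in extensive small, 68.9 RPKM in initial small, 149 RPKM in large and 89.6 RPKM in all polysomes, against 153 RPKM in mRNA. Rpn8 had 72.8 RPKM in extensive small, 41.2 RPKM in initial small, 148 RPKM in large and 79.8 RPKM in all polysomes, against 123 RPKM in mRNA. The intervals of their TE in all polysomes overlapped, at 0.585 (0.506 to 0.676) for Rpn11, the lowest of the Rpn class, and 0.648 (0.560 to 0.749) for Rpn8.

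Rpn1 and Rpn2 are the large scaffold subunits, with CDSs of 2760 and 3090 nt, the longest of the complex. Rpn1 had 21.4 RPKM in extensive small, 34.7 RPKM in initial small, 182 RPKM in large and 140.3 RPKM in all polysomes, against 174 RPKM in mRNA. Rpn2 had 31.4 RPKM in extensive small, 43.5 RPKM in initial small, 162 RPKM in large and 143 RPKM in all polysomes, against 149 RPKM in mRNA. These were the only Rpn genes besides Rpn13 with a lower footprint density in the extensive than in the initial small polysome library.

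The other lid subunits, which form the horseshoe beside the ATPase ring, ranged widely in small polysomes. Rpn12, of 795 nt, had 82.1 RPKM in extensive small, 74.8 RPKM in initial small, 170.1 RPKM in large and 93.5 RPKM in all polysomes, against 104 RPKM in mRNA. Rpn5, of 1509 nt, had 33.9 RPKM in extensive small, 25.1 RPKM in initial small, 163 RPKM in large and 101 RPKM in all polysomes, against 150.0 RPKM in mRNA. Rpn3, Rpn7 and Rpn9 lay between 29.8 and 60.4 RPKM in extensive small, 26.3 and 53.3 RPKM in initial small, 116 and 177 RPKM in large, and 76.8 and 98.1 RPKM in all polysomes, against 104 to 146 RPKM in mRNA.

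In footprints per mRNA the medians of the particles lay apart in small polysomes and close together in all polysomes, while single genes overlapped in every library. TE relates the footprints of a library to total cytoplasmic mRNA, not to the mRNA of that fraction. The median TE of core and regulatory genes was 0.844 and 0.321 in extensive small, 0.745 and 0.350 in initial small, 0.987 and 1.10 in large, and 0.686 and 0.671 in all polysomes. Of the 14 core genes, 7 in extensive small and 6 in initial small polysomes lay below the highest regulatory gene (Rpn6 at 0.834 and Rpn12 at 0.719), and all 14 did so in large and in all polysomes. The median of the 8439 other genes with mRNA reads was 0.927 in extensive small, 0.704 in initial small, 0.850 in large and 0.979 in all polysomes. In all polysomes none of the 14 core and 2 of the 18 regulatory genes lay above the median of other genes, and the particle medians lay above 26.9% and 25.8% of them. In large polysomes 11 core and 15 regulatory genes lay above it. In initial small polysomes 8 core genes and 1 regulatory gene, Rpn12, did so, and in extensive small polysomes 5 core genes and no regulatory gene.

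Other genes whose CDS length and mRNA density lay in the same ranges had a median TE in all polysomes of 0.759 (68 genes, set beside the core particle) and 0.833 (380 genes, set beside the regulatory particle), so the distance of both particles to genes of like length and abundance was smaller than that to all genes. In extensive small polysomes the same 2 sets of genes had medians of 1.34 and 0.599, both above those of the particles. In large polysomes their medians were 0.732 and 0.973, both below those of the particles.

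**Figure D2:**
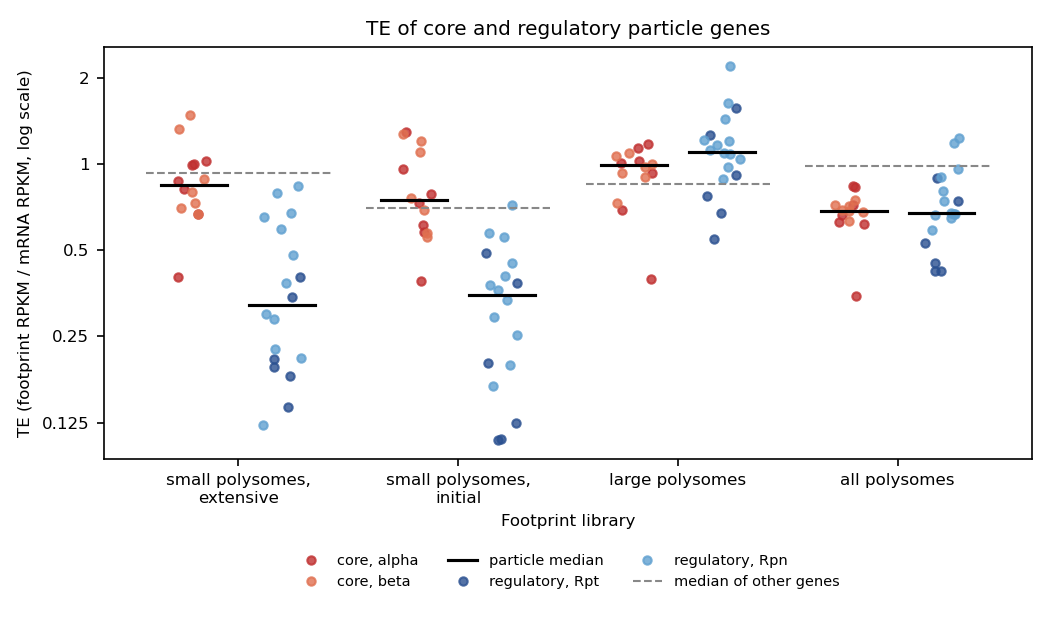
TE (footprint RPKM over mRNA RPKM, log axis) of each core gene (red shades, left) and regulatory gene (blue shades, right) in the 4 footprint libraries; black bars are particle medians and dashed lines the median of other genes with mRNA reads. In all polysomes both medians, 0.686 and 0.671, lie below the dashed line at 0.979. The single low core gene in each library is Prosalpha1, whose mRNA density is uncertain.

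How the ribosomes of each mRNA were spread over polysome sizes was compared by the log2 ratio of density in initial small over large polysomes. All 18 regulatory genes were at least 2-fold lower in small polysomes, and none of the 14 core genes was, where 33.2% of 7161 genes with reads in both libraries were at least 2-fold lower. None of the 32 genes was at least 2-fold higher, where 20.0% of all genes were. The core median was -0.16 and ranged from -0.97 for Prosbeta5 to 0.48 for Prosalpha5, and the regulatory median was -1.87 and ranged from -2.70 for Rpn5 to -1.11 for Rpn11, so these 14 and 18 genes did not overlap. CG13779 (Sem1), a regulatory subunit outside the name rule, lay above both, at 1.92. The median of 7127 other genes was -0.42. Scaling to CDS reads in place of mapped reads shifts all genes by 0.48, which turns the core median to 0.32 and leaves 14 of 18 regulatory genes at least 2-fold lower, whereas the distance between the particle medians, 1.72, does not depend on the scaling.

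Within the core, the counting interval of the ratio lay above 0 in 4 genes and below 0 in 7. Prosalpha5, at 0.48 (0.33 to 0.62), had 1558 footprints in small against 535 in large polysomes. Prosbeta5, at -0.97 (-1.09 to -0.86), had 1309 footprints in small against 1227 in large polysomes, which came to 1.96-fold lower density in small polysomes. The 4 genes with an interval above 0 were Prosalpha2, Prosalpha5, Prosbeta1 and Prosbeta3, and the 3 whose interval held 0 were Prosalpha1, Prosbeta4 and Prosbeta6. These counts depend on the scaling and on the library. Scaled to CDS reads, 8 intervals lay above 0 and 4 below. From the extensive library, 3 lay above 0 (Prosalpha2, Prosbeta3 and Prosbeta4) and 6 below, with Prosbeta1 at -0.51 (-0.69 to -0.32) and Prosalpha5 at -0.10 (-0.24 to 0.05). The intervals of all 18 regulatory genes lay below 0 in each of these settings.

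Within the regulatory particle, Rpn5 was 6.50-fold lower in small than in large polysomes, with 208 against 646 footprints, at -2.70 (-2.93 to -2.47). Rpt3, at -2.63 (-2.92 to -2.35), and Rpt5, at -2.61 (-3.00 to -2.24), were as low within counting error. The least shifted were Rpn11 at -1.11 (-1.33 to -0.90), Rpn13 at -1.13 (-1.33 to -0.93) and Rpn12 at -1.19 (-1.41 to -0.96), which differed by less than counting error. The median of the 6 Rpt genes was -2.25 and that of the 12 Rpn genes -1.79, with overlapping ranges.

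CDS length moved with this ratio: core CDSs were 606 to 849 nt long and regulatory CDSs 795 to 3090 nt. Across the 32 genes the Spearman correlation of length and ratio was -0.89 (Pearson -0.80). Within the core it was -0.83 (Pearson -0.79) over 14 genes and within the regulatory particle -0.53 (Pearson -0.41) over 18 genes. Across 7127 other genes it was -0.57 (Pearson -0.57), and genes of the same 2 libraries are not independent replicates. Other genes of core length had a median ratio of 0.58 (776 genes) and other genes of regulatory length -0.64 (4413 genes), and all members of each particle lay below the median of their length range. Where the mRNA density was in the particle's range too, the medians were 0.34 (68 genes) and -1.19 (380 genes), with 12 of 14 core and 15 of 18 regulatory genes below them. The part of length in the difference between particles was not tested. The regulatory gene within the core length range, Rpn12 at -1.19, lay below all 14 core genes. Its CDS is as long as that of Prosalpha3 (795 nt), which was at -0.29 (-0.46 to -0.12).

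**Figure D3:**
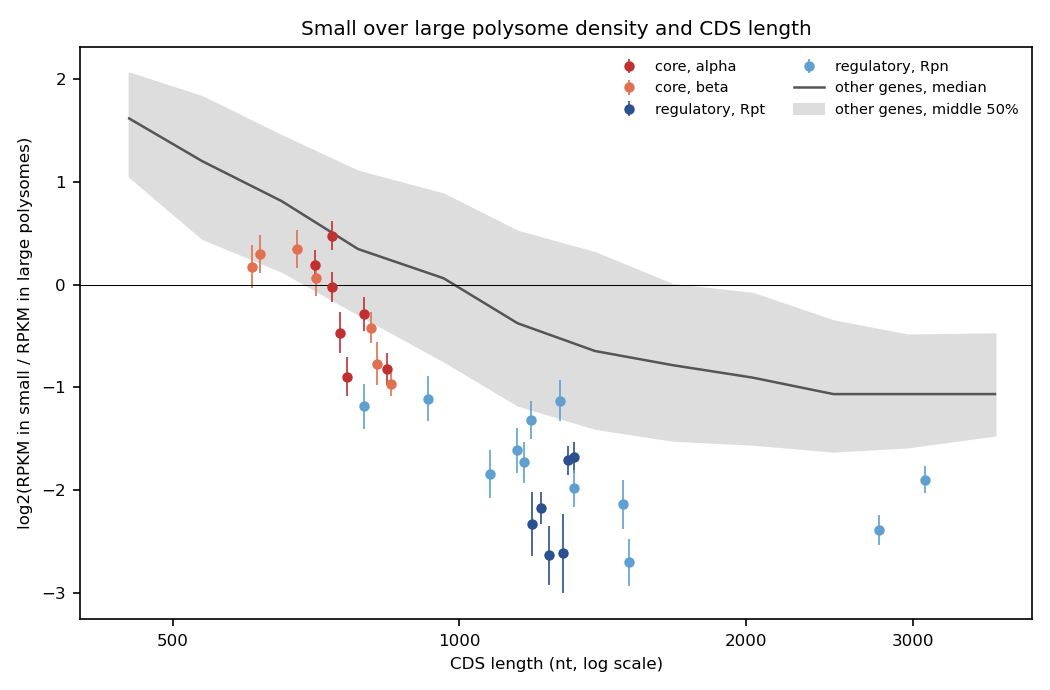
Log2 ratio of density in initial small over large polysomes (vertical axis) against CDS length (nt, log axis) for the 14 core (red shades) and 18 regulatory genes (blue shades), with bars for 95% counting intervals; the grey line and band are the median and the middle 50% of other genes in bins of length. The core genes lie between -0.97 and 0.48 and the regulatory genes between -2.70 and -1.11, most of them below the grey line at their own length.

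The extensive library, which the study made as a biological replicate of small polysomes, shows how far the same fraction differed between experiments. The median log2 ratio of extensive over initial density was 0.08 for core genes and 0.18 for regulatory genes, against 0.36 for 7491 other genes. None of the 32 genes differed by 2-fold in either direction, where 16.1% of 7526 genes were at least 2-fold higher and 2.84% at least 2-fold lower in the extensive library. The ratio ranged from -0.85 for Prosbeta1 to 0.82 for Rpn8, and the interval lay above 0 in 6 core and 9 regulatory genes and below 0 in 2 core and 5 regulatory genes. Computed from the extensive library instead, the small over large medians were -0.12 for the core and -1.88 for the regulatory particle, and 17 of 18 regulatory genes and no core gene were at least 2-fold lower. The exception was Rpn11 at -0.53, which then overlapped Prosalpha4 at -0.60 and Prosbeta5 at -0.58.

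A gene counted as translated where it reached the study's lower limits of density (RPKM), of coverage, the part of the CDS under footprints (0.57), and of reads (5) in a library. By these limits 33 of the 47 genes were translated in extensive small, 32 in initial small, 32 in large and 33 in all polysomes, where 35.7, 29.3, 23.1 and 38.3% of all genes passed. All 14 core genes passed in each library. The 18 regulatory genes passed as well, except Rpt5 in initial small polysomes, which had 78 reads at 11.0 RPKM, just under the density limit, and a coverage of 0.59, just above the other. In large polysomes its coverage was 0.93.

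Of the 15 testis-type paralogues, 11 had no read in any of the 5 samples, and only Rpt6R was translated. CG30382 (Prosalpha1R), which the name rule did not catch, is not among the 15 and passed in all 4 footprint libraries. In mRNA 2 of the 15 had reads, beside 8439 of 13795 other genes. The 11 without a read were Prosalpha3T, Prosalpha4T1, Prosalpha4T2, Prosalpha6T, Prosbeta2R1, Prosbeta4R1, Prosbeta4R2, Prosbeta5R1, Prosbeta5R2, Rpn12R and Rpn13R. With 0 reads, densities of up to 0.336 to 0.517 RPKM in extensive small, 0.560 to 0.862 RPKM in initial small, 1.17 to 1.81 RPKM in large and 0.965 to 1.49 RPKM in all polysomes, and 0.675 to 1.04 RPKM in mRNA, remain possible, depending on CDS length (3 reads). These bounds lie far below the main genes that the 11 resemble, the lowest of which, Rpn13, had 42.3 RPKM in extensive small polysomes. In such bulk libraries many cells with little RNA and few cells with more cannot be told apart.

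Rpt6R, on chromosome arm 3R (26407991 to 26409245, minus strand, 2 coding exons, 1200 nt), had 48.7 RPKM in extensive small, 27.6 RPKM in initial small, 22.9 RPKM in large and 27.4 RPKM in all polysomes, against 17.0 RPKM in mRNA. The reads behind these densities numbered 535, 182, 72 and 105 footprints and 93 mRNA reads. Its main gene Rpt6, on the X chromosome (21187205 to 21188630, plus strand, 3 coding exons, 1218 nt), had 811, 475, 1024 and 717 footprints in the same libraries and 1944 mRNA reads. Rpt6R therefore carried more footprints per mRNA than Rpt6, with a TE in all polysomes of 1.61 (1.21 to 2.16) against 0.527 (0.483 to 0.575), and the intervals do not overlap. The paralogue lay at 0.27 (-0.13 to 0.69) in the log2 ratio of initial small over large polysomes, against -2.17 (-2.33 to -2.02) for Rpt6 at nearly the same CDS length. Rpt6R passed the limits of translation in all libraries except large polysomes, where its coverage was 0.44. Its coverage was 0.68 in extensive small, 0.60 in initial small, just above the limit of 0.57, and 0.75 in all polysomes. Footprints covered more of Rpt6, with 0.98 in extensive small, 0.94 in initial small, 1.00 in large and 1.00 in all polysomes. In extensive small polysomes Rpt3, Rpt4 and Rpt5 had fewer footprints than Rpt6R, at 365, 274 and 215. Their coverage there was 0.95, 0.90 and 0.67. The density and TE of Rpt6R rest on footprints in part of its CDS.

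Rpt3R was transcribed and scarcely covered by footprints. It had 49 mRNA reads (8.82 RPKM), and 10 footprints in extensive small, 3 in initial small, 5 in large and 6 in all polysomes, with a TE in all polysomes of 0.175 (0.061 to 0.409). Rpt3 itself had 274 footprints and 928 mRNA reads there. Prosbeta2R2 had 4 footprints in extensive small and 5 in initial small polysomes and no other read, and Rpt4R had 1 footprint in all polysomes. The read counts of these 3 genes are too low to compare libraries, although Rpt3R fell past 2-fold higher and Prosbeta2R2 past 2-fold lower in extensive over initial small polysomes.

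Summed over all 15 paralogues, reads came to 4.53% (4.15 to 4.94%) of those on the 11 main genes in extensive small, 3.23% (2.78 to 3.73%) in initial small, 1.33% (1.05 to 1.67%) in large and 2.42% (1.99 to 2.92%) in all polysomes, against 1.37% (1.15 to 1.61%) in mRNA. These sums leave out CG30382 (Prosalpha1R). Rpt6R held 535 of the 549 paralogue reads in extensive small polysomes and 93 of 142 in mRNA. Of 16 germline markers chosen for the testis, 12 had no mRNA read, among them vas, can, sa, aly and comr. Of 13795 other genes, 8439 had mRNA reads. The summed density of the 16 markers was 67.0 RPKM in extensive small, 38.4 RPKM in initial small, 114 RPKM in large and 63.9 RPKM in all polysomes. In mRNA it was 40.6 RPKM. Most of that sum was bam, a differentiation factor of the germline, at 26.2 RPKM in mRNA, followed by mia at 10.2 RPKM and janB at 4.15 RPKM.

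**Figure D4:**
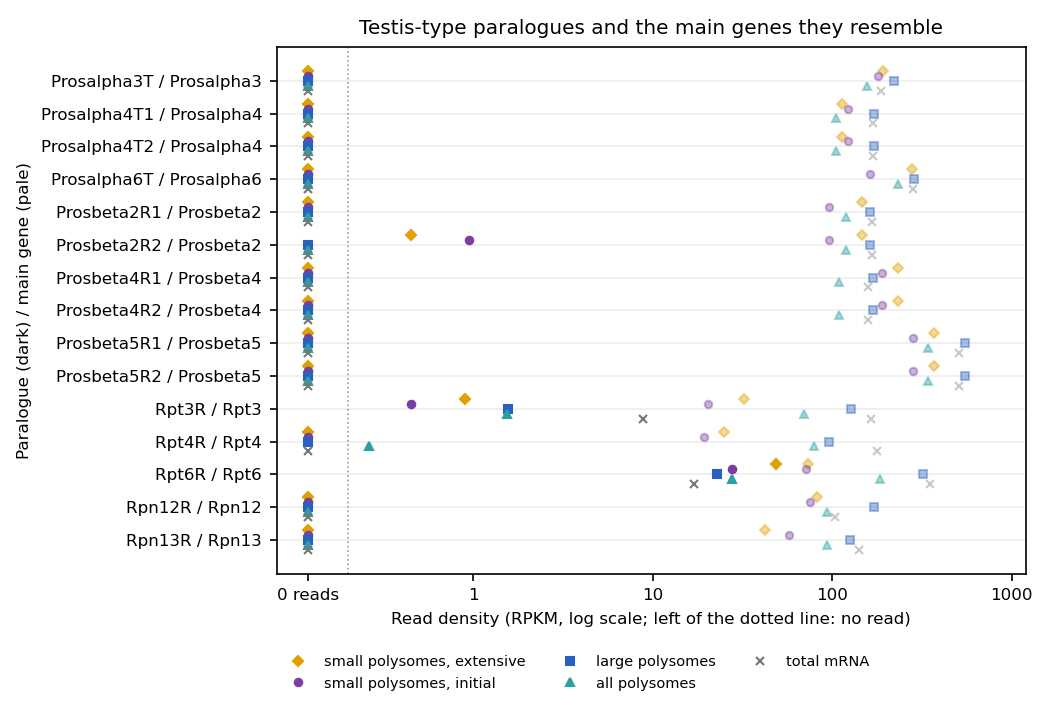
Read density (RPKM, log axis) of the 15 testis-type paralogues (dark symbols) and of the main genes they resemble (pale symbols), 1 row per pair, in the 4 footprint libraries and total mRNA; symbols left of the dotted line had no read. Rpt6R, between 17.0 and 48.7 RPKM, is the only one of these 15 above 10 RPKM.

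Upstream open reading frames (uORFs), short frames in the 5′ leader ahead of the CDS, were listed for 10 of the 32 genes. Of their 11 distinct uORFs, 5 were translated by the limits above in extensive small, 2 in initial small, 2 in large and 3 in all polysomes, where 13.3, 6.78, 5.60 and 9.60% of 14788 distinct uORFs passed. The 5 lay in Prosalpha3, Prosalpha4, Rpn7, Rpt1 and Rpt2. The uORF of Prosalpha4, of 75 nt (X chromosome, 16170329 to 16170403, plus strand), was the only one to pass as listed in all 4 libraries. It had 108 RPKM in extensive small, 70.3 RPKM in initial small, 25.4 RPKM in large and 79.4 RPKM in all polysomes, from 74, 29, 5 and 19 reads. This was 95.7% of the density of its CDS in extensive small and 75.4% in all polysomes, but 14.9% in large polysomes.

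The uORF of Prosalpha3, of 39 nt, had 56.0 RPKM in extensive small, 112 RPKM in initial small and 72.3 RPKM in all polysomes, from 20, 24 and 9 reads. In large polysomes it was listed at 0 RPKM although its coverage was given as 1.00, so that value is uncertain. The uORF of Rpn7, of 66 nt (arm 3R, 18287676 to 18287741, minus strand), went the other way, with 16.5 RPKM from 10 reads in extensive small, 13.8 RPKM from 5 reads in initial small, 98.1 RPKM from 17 reads in large and 52.2 RPKM from 11 reads in all polysomes. It passed in extensive small polysomes alone, since its coverage of 0.38 in initial small, 0.50 in large and 0.55 in all polysomes was below the limit. The uORF of Rpt1 passed in extensive small (49.2 RPKM), large (44.8 RPKM) and all polysomes (79.9 RPKM). In initial small polysomes it was listed at 0 RPKM with a coverage of 1.00, so its failure there is uncertain in the same way. The uORF of Rpt2, of 33 nt, passed in extensive small polysomes (36.4 RPKM). The uORFs of Prosbeta7, which had 2, and of Rpn3, Rpn8, Rpn10 and Rpn13 did not pass in any library, nor did the 3 uORFs of the paralogues Prosalpha3T and Prosbeta4R1, which had no read.

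Genes that assemble the proteasome, feed it or regulate it were examined as a list of 16, of which 15 had values and all of these had mRNA reads. Translated were 12 in extensive small, 12 in initial small, 11 in large and 12 in all polysomes, beside 35.7, 29.3, 23.1 and 38.3% of all genes. The ubiquitin genes Ubi-p63E and Ubi-p5E passed in no library, although their mRNA stood at 494 and 257 RPKM. Their TE in all polysomes was 0.066 and 0.029. Whether keeping only unique matches lowered their footprints was not tested. In initial small over large polysomes 7 of 15 were at least 2-fold lower, beside 33.2% of all genes, and 3 at least 2-fold higher, beside 20.0%. Their median log2 ratio was -0.97. Pomp, the chaperone of core assembly, had 306 RPKM in extensive small, 312 RPKM in initial small, 93.1 RPKM in large and 138 RPKM in all polysomes, against 160 RPKM in mRNA. At 405 nt its CDS is shorter than that of any core subunit, and it was at 1.74 on the log2 scale.

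TER94, the segregase (p97 in mammals) that extracts ubiquitin-tagged proteins and hands them to the proteasome, had 41.6 RPKM in extensive small, 55.8 RPKM in initial small, 373 RPKM in large and 219.6 RPKM in all polysomes, against 258 RPKM in mRNA. Its log2 ratio of -2.74 was below that of all 32 subunit genes, although it lies within the counting intervals of Rpn5, Rpt3 and Rpt5. REG, the alternative activator of the core that works without ATP, had 319 RPKM in extensive small, 149.8 RPKM in initial small, 230.2 RPKM in large and 196 RPKM in all polysomes, against 172 RPKM in mRNA. PI31, a regulator of the core, had 182 RPKM in extensive small, 113 RPKM in initial small, 81.1 RPKM in large and 118 RPKM in all polysomes, against 57.5 RPKM in mRNA. Its TE in all polysomes, 2.06, exceeded that of each of the 32 subunit genes. The transcription factor cnc, which raises proteasome genes under stress in flies and mammals, had 10.7 RPKM in extensive small, 12.8 RPKM in initial small, 25.2 RPKM in large and 29.9 RPKM in all polysomes, against 11.3 RPKM in mRNA.

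CG13779 (Sem1), the smallest regulatory subunit, was not caught by the name rule. Its CDS of 240 nt had 307 RPKM in extensive small, 223 RPKM in initial small, 58.7 RPKM in large and 71.8 RPKM in all polysomes, against 109 RPKM in mRNA. At 1.92 in the log2 ratio of initial small over large polysomes it stood above each of the 18 regulatory and 14 core genes, and its CDS was also shorter than all of theirs.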

How the data were processed

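Small and large polysome, all polysome and total mRNA samples of S2 cells were used, 1 per group. Per the submitters' processing notes and the study's methods, the authors removed rRNA and tRNA reads with Bowtie. They mapped the rest with TopHat to FlyBase Release 5 (at most 2 mismatches) and kept uniquely matching reads. The study's read summary gives unique matches for the footprint libraries, but marks them ND for mRNA. Whether mRNA reads were limited to unique matches is therefore not known. The authors deposited RPKM per CDS and uORF, and footprint coverage as a fraction. The mRNA values appear to pool 2 libraries.

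Reads were counted back from the steps of RPKM times length, which gave whole reads (within 0.01) for 100% of CDSs. TE is footprint over mRNA RPKM for genes with mRNA above 0. Intervals of single genes and of read sums are exact Poisson or conditional binomial (95%), for counting error only. Bounds of medians, used only to label the alternatives, come from the ranks of genes. As the labels give each group 1 sample, no test was made, and 2-fold was the call. Values in every library were named for paralogues, their main genes and the extremes of each class in mRNA, TE and small over large ratio, and are given for further members. Members and lists were chosen with earlier results of these data known. Names of CG30382, CG13779 and uORF transcripts came from RefSeq and Ensembl 115 tables of BDGP6, of which no coordinates were used. For uORFs, 24891 of 26308 entries matched a gene. No sequences were used here. Procedures were tested on simulated data. Alternatives concerned limits, CDS choice, membership, scaling and library. Software: scipy 1.17.1 and pandas 2.3.3 under Python 3.11.15, with numpy 2.4.6; figures were drawn with matplotlib 3.10.9.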

Additional observations from a re-analysis of the deposited data

How the results depend on the processing

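Of 128 values recomputed under the alternatives, 118 were counted as unchanged, and none of the values past 2-fold changed sign. Counts had to stay within 1.5 times the count reported. Paralogue sums had to stay within their counting interval. Medians and ratios of medians had to stay within bounds from the ranks of genes, which are wide and do not measure counting error. So the median TE of core genes in initial small polysomes, 0.745 as reported and 1.14 when scaled to CDS reads, counted as unchanged. The limits of 5 RPKM in mRNA and of 50 reads excluded none of the 32 genes, so those values could not change. Dividing by CDS reads in place of mapped reads moved 5: the small over large log2 median of the core became 0.32 and that of the regulatory particle -1.39, the extensive over initial log2 median of the core became -0.22, the median TE of core genes in extensive small polysomes 1.05 and that of regulatory genes in initial small polysomes 0.535. Taking RPKM in place of reads moved the paralogue sums to 3.16% of the main genes in extensive small, 2.28% in initial small, 1.02% in large and 1.84% in all polysomes, and to 1.07% in mRNA. Under a density limit of 50 RPKM, 24, 23, 32 and 31 genes were translated in extensive small, initial small, large and all polysomes. Leaving out Prosalpha1, chosen after seeing the data, kept the core medians, the ratios and the counts within these limits. The regulatory medians do not hold this gene and could not change. No paired analysis was made, because the labels give no replicate numbers that would pair libraries. Differences between single genes are limited by counting error at the lowest densities (Rpt5, Rpt3R, Prosbeta2R2, Rpt4R and the uORFs). Between both small polysome libraries the 32 genes differed by -0.85 to 0.82 on the log2 scale, and no such spread can be given for large or all polysomes.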
